A study of Mus musculus with 16 samples.

Results

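The 10 transcripts that mark blood monocytes entering injured tissue and the macrophages of an infarct were followed across left ventricles of PKM2fl/fl and PKM2-/- mice. The 10 genes, out of 55492 listed, were taken by name: Ly6c2, Plac8, Chil3, Arg1, Trem2, Gpnmb, Fabp5, Cd68, Lyz2 and Lgals3. RNA sequencing was done on 16 left ventricles of male C57BL/6 mice aged 8 to 12 weeks. The controls carried floxed alleles of the exon specific to PKM2, exon 10 of Pkm, on both chromosomes (PKM2fl/fl). The PKM2-/- mice lacked that exon in every tissue, because PKM2fl/fl mice had been crossed with CMV-Cre mice and the Cre was then bred out, so the leukocytes that enter the heart were PKM2-/- as well. Hearts were taken at baseline with no treatment (2 per genotype), 3 days after sham surgery (3 per genotype) or 3 days after myocardial infarction (MI) by permanent ligation of the left anterior descending artery (3 per genotype).

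After an infarct, monocytes rich in the surface protein Ly6C leave the blood through the chemokine receptor CCR2, enter the injured muscle and mature into macrophages. The maturing cells take up dead cardiomyocytes and lipid, and build up lysosomal, galectin and lipid-handling proteins. The resident macrophages of the uninjured heart carry other surface markers, such as LYVE1, TIMD4 and FOLR2.

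Each of the 9 genes that could be tested was higher after MI than after sham surgery in both genotypes. The differences ranged from 3.14-fold for Fabp5 in PKM2fl/fl to 83.7-fold for Arg1 in PKM2-/- hearts. None of the 9 passed the test between genotypes at baseline, after sham surgery or after MI. Trem2 was listed at 0 in all 16 hearts, within a stretch of the chromosome whose genes were at or near 0.

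The deposited values are read counts divided by a size factor of each library, called normalized counts here, and the libraries held 20623769 to 71855101 reads. Fold changes are on the scale of log2(normalized count + 1), with standard errors (SE). They and the adjusted p-values came from limma, with the Benjamini-Hochberg method applied over the 20576 genes whose mean was at least 10. A gene passed the test where its adjusted p was under 0.05 and it differed 2-fold or more. Of the 10 genes, 9 had such a mean. The count of Pkm, which pools PKM1 and PKM2 transcripts, ranged from 7779 to 12076 normalized counts in PKM2fl/fl hearts and from 10120 to 16113 in PKM2-/- hearts, so it does not check the loss of 1 exon. The share of reads on 3 ribosomal RNA loci was 17.2 to 22.1% in PKM2fl/fl and 38.6 to 43.0% in PKM2-/- hearts at baseline, 15.8 to 27.6% and 27.6 to 44.5% after sham surgery, and 19.6 to 43.0% and 15.4 to 31.6% after MI. Its part in the results was not tested. The 9 genes of the cardiomyocyte list, summed, went from between 1472200 and 1640200 normalized counts in PKM2fl/fl sham hearts to between 306650 and 663270 in PKM2fl/fl MI hearts. In PKM2-/- hearts the sum went from between 1321500 and 1648700 to between 294570 and 380520, so heart muscle transcripts were present in each library. In bulk tissue, fewer cells of a type and less RNA per cell cannot be told apart.

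Promoters of 8 of the 10 genes were matched in the RefSeq table for GRCm38.p6, the build of the authors' alignment. The windows of Cd68, Lyz2 and Chil3, the 250 bases before the start of transcription, are printed 5′ to 3′ because Cd68 held the most matches, Lyz2 had the highest level per length, and Chil3 had the largest difference between genotypes after MI. Capitals mark GAGGAA, the core bound by the myeloid factor PU.1, and TGANTCA, the site of AP-1, on either strand.
Cd68: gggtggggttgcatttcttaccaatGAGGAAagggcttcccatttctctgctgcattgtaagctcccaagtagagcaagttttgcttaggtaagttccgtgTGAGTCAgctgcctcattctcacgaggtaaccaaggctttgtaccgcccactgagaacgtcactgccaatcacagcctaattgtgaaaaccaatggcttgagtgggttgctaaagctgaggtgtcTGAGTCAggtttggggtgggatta
Lyz2: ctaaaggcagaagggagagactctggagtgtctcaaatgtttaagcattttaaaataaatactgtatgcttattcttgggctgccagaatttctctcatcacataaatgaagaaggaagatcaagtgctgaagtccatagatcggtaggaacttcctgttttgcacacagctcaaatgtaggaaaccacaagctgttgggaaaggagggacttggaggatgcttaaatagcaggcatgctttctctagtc
Chil3: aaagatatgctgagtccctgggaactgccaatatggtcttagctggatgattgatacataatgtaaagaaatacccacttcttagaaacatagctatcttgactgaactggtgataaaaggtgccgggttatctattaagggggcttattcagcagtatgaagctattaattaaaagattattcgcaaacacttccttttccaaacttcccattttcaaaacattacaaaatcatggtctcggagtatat
These windows lie on the reverse strand, at chr11:69666171-69666420 for Cd68, chr10:117282273-117282522 for Lyz2 and chr3:106167565-106167814 for Chil3. Cd68 held GAGGAA at 225 bases before the start and TGANTCA at 149 and 24 bases. GAGGAA was present in the windows of Ly6c2, Plac8, Trem2 and Cd68, that is in 4 of 8, and in 23.3% of all 32851 promoters in the table. TGANTCA was present in those of Trem2 and Cd68 and in 6.75% of all promoters. The C/EBP motif TTGCNNAA was found in Cd68 alone among the 8 and in 9.56% of all promoters. The motifs of TFEB and MITF (CACGTG and TCATGTG), the interferon-stimulated response element of interferon regulatory factors and of hypoxia-inducible factor (ACGTG, which CACGTG contains) were in 0 of the 8 windows, and in 6.02%, 3.25%, 2.98% and 16.6% of all promoters. A match is a description of the letters and not a bound site.

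**Figure D1:**
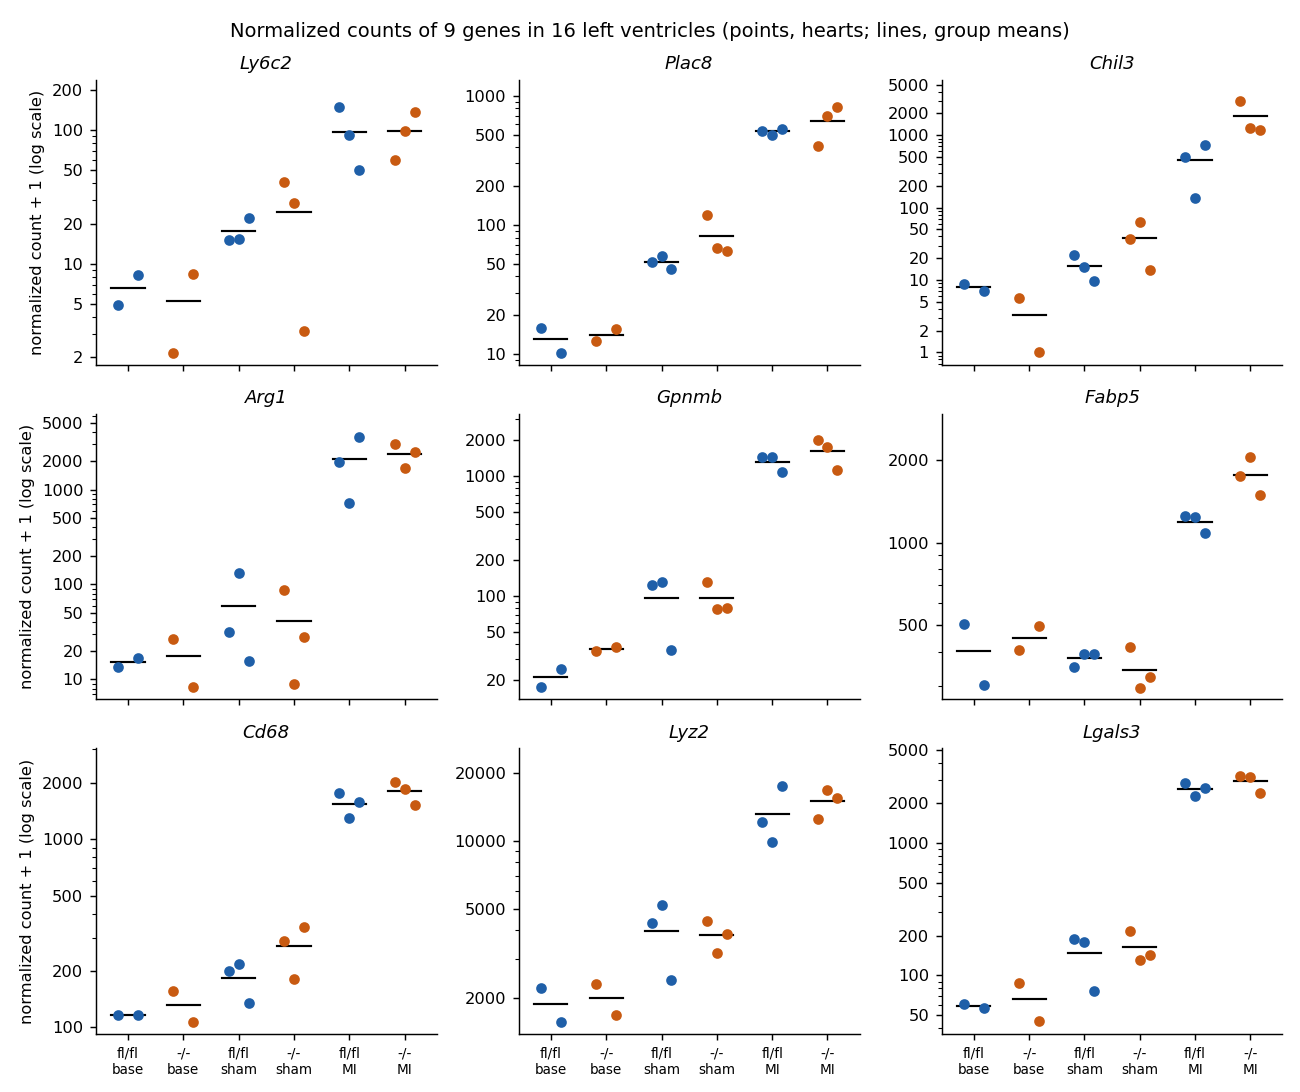
Normalized count plus 1 (log scale) of 9 genes in each of 16 left ventricles, by genotype (PKM2fl/fl in blue, PKM2-/- in orange) and condition (base, baseline). Points are hearts and lines are group means; the MI hearts lie above the sham hearts of the same genotype for every gene shown, and the PKM2-/- MI hearts lie above the PKM2fl/fl MI hearts only for Chil3 and Fabp5.

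The first question was how the genes of the entering monocyte responded. Ly6c2 encodes a form of the Ly6C antigen that sets inflammatory monocytes apart. It had 14.1, 14.4 and 21.1 normalized counts in the 3 PKM2fl/fl sham hearts and 147, 90.0 and 49.4 in the 3 PKM2fl/fl MI hearts. In PKM2-/- mice it had 40.2, 27.4 and 2.16 after sham surgery and 59.2, 97.8 and 136 after MI. The MI hearts were above the sham hearts in both genotypes, although the sham hearts of PKM2-/- mice were spread widely. The log2 fold change was 2.35 in PKM2fl/fl (SE 0.77, adjusted p = 0.0195) and 2.59 in PKM2-/- (SE 0.77, adjusted p = 0.00978). The PKM2fl/fl difference missed the threshold without sham replicate 1 (adjusted p = 0.055), sham replicate 2 (0.0518) or MI replicate 1 (0.0779). The gene rested on 14 to 43 reads in the PKM2fl/fl sham hearts and 54 to 95 in the PKM2fl/fl MI hearts.

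Plac8, a small cysteine-rich protein abundant in Ly6C-high monocytes, varied little among PKM2fl/fl hearts and more among PKM2-/- hearts. It had 50.5, 56.5 and 44.6 normalized counts in the PKM2fl/fl sham hearts and 532, 496 and 554 in the PKM2fl/fl MI hearts. In PKM2-/- hearts it had 119, 65.3 and 61.5 after sham surgery and 407, 697 and 819 after MI. The log2 fold change was 3.36 in PKM2fl/fl (SE 0.28, adjusted p = 4.24e-07) and 2.96 in PKM2-/- (SE 0.28, adjusted p = 8.28e-07). Each PKM2-/- sham heart had more Plac8 than each PKM2fl/fl sham heart, with a log2 difference of 0.63 (SE 0.28, adjusted p = 0.479) that did not pass the test. Such a separation was found for 8.27% of all genes.

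Chil3, the secreted chitinase-like protein Ym1, is made by monocytes, alternatively activated macrophages and neutrophil precursors. In PKM2fl/fl it had 21.1, 14.4 and 8.82 normalized counts after sham surgery and 495, 137 and 728 after MI. In PKM2-/- it had 35.4, 62.7 and 12.9 after sham surgery and 3014, 1275 and 1171 after MI. The lowest PKM2-/- MI heart was thus above the highest PKM2fl/fl MI heart. The log2 fold change with MI was 4.62 in PKM2fl/fl (SE 0.71, adjusted p = 7.33e-05) and 5.70 in PKM2-/- (SE 0.71, adjusted p = 7.63e-06).

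Arg1, the arginase that turns arginine into ornithine and urea, rose most of the 9 in log2 fold change. It had 30.6, 131 and 14.7 normalized counts in PKM2fl/fl sham hearts and 1968, 718 and 3552 in PKM2fl/fl MI hearts. It had 86.8, 7.84 and 27.0 in PKM2-/- sham hearts and 3021, 1697 and 2476 in PKM2-/- MI hearts. The lowest MI value exceeded the highest sham value by more than the whole range of the sham hearts in each genotype. The log2 fold change was 5.41 in PKM2fl/fl (SE 0.82, adjusted p = 7.03e-05) and 6.39 in PKM2-/- (SE 0.82, adjusted p = 1.07e-05).

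The genes of the phagocytic, lipid-handling macrophage followed. Gpnmb encodes a glycoprotein of the lysosome and melanosome membrane. It had 122, 130 and 34.3 normalized counts in PKM2fl/fl sham hearts and 1442, 1461 and 1080 in PKM2fl/fl MI hearts. It had 130, 77.1 and 78.8 in PKM2-/- sham hearts and 2004, 1757 and 1125 in PKM2-/- MI hearts. Sham replicate 3 was the lowest PKM2fl/fl sham heart for Gpnmb, as it was for Cd68, Lyz2, Lgals3, Plac8, Chil3 and Arg1. The log2 fold change was 3.99 in PKM2fl/fl (SE 0.39, adjusted p = 1.74e-06) and 4.08 in PKM2-/- (SE 0.39, adjusted p = 9.14e-07).

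Fabp5, a fatty acid binding protein of macrophages, endothelium and epidermis, had a smaller rise. It had 351, 392 and 392 normalized counts in PKM2fl/fl sham hearts and 1249, 1241 and 1078 in PKM2fl/fl MI hearts. It had 413, 294 and 321 in PKM2-/- sham hearts and 1754, 2055 and 1496 in PKM2-/- MI hearts. The 2 genotypes did not overlap after MI. The log2 fold change with MI was 1.65 in PKM2fl/fl (SE 0.18, adjusted p = 3.87e-06) and 2.37 in PKM2-/- (SE 0.18, adjusted p = 1.13e-07).

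Lgals3, the galectin that is abundant in infarct macrophages, had 189, 179 and 76.0 normalized counts in PKM2fl/fl sham hearts and 2852, 2252 and 2619 in PKM2fl/fl MI hearts. In PKM2-/- it had 215, 129 and 141 after sham surgery and 3218, 3153 and 2396 after MI. The rise was nearly the same size in both genotypes, with a log2 fold change of 4.21 in PKM2fl/fl (SE 0.31, adjusted p = 1.23e-07) and 4.19 in PKM2-/- (SE 0.31, adjusted p = 9.6e-08). The difference between those 2 rises was -0.03 with a 95% interval from -0.96 to 0.91.

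Cd68 and Lyz2 are general macrophage genes, a lysosomal membrane protein and the lysozyme of myeloid cells. Cd68 had 198, 216 and 134 normalized counts in PKM2fl/fl sham hearts and 1759, 1289 and 1571 in PKM2fl/fl MI hearts. It had 286, 180 and 340 in PKM2-/- sham hearts and 2016, 1854 and 1520 in PKM2-/- MI hearts. Its log2 fold change was 3.09 in PKM2fl/fl (SE 0.23, adjusted p = 1.35e-07) and 2.78 in PKM2-/- (SE 0.23, adjusted p = 2.64e-07). Lyz2 rose less, from a higher start. It had 4319, 5157 and 2404 normalized counts in PKM2fl/fl sham hearts and 12070, 9874 and 17453 in PKM2fl/fl MI hearts. It had 4398, 3167 and 3836 in PKM2-/- sham hearts and 12462, 16817 and 15415 in PKM2-/- MI hearts. Its log2 fold change was 1.76 in PKM2fl/fl (SE 0.26, adjusted p = 6.19e-05) and 1.97 in PKM2-/- (SE 0.26, adjusted p = 1.51e-05).

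In all, 9 of 9 tested genes rose in PKM2fl/fl hearts, where 12.4% of the 20576 genes tested passed as higher and 11.1% as lower. In PKM2-/- hearts 9 of 9 rose, where 14.5% passed as higher and 14.3% as lower. The 9 are those whose mean was high enough to test, so these counts are a description. Their median log2 fold change was 3.36 in PKM2fl/fl and 2.96 in PKM2-/-, against a median over all genes of -0.0025 and 0.010. The MI and sham hearts did not overlap for any of the 9 in either genotype, as for 30% of all genes in the higher direction in PKM2fl/fl and 31.7% in PKM2-/-.

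**Figure D2:**
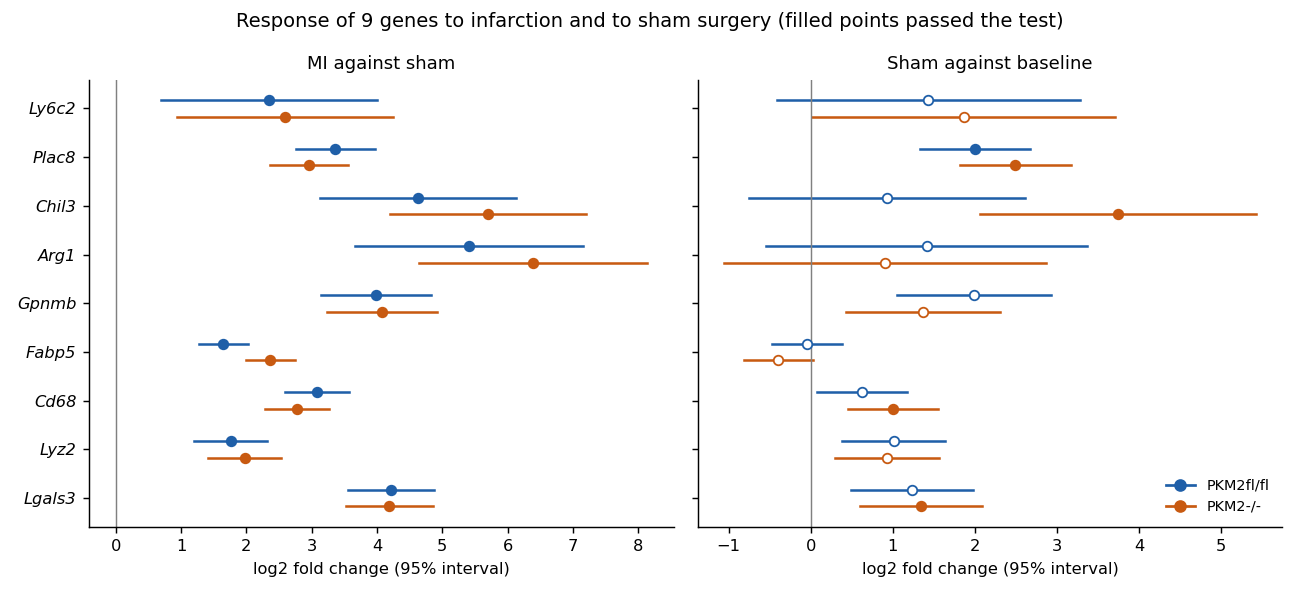
Log2 fold change (x axis) of 9 genes, MI against sham on the left and sham against baseline on the right, in PKM2fl/fl (blue) and PKM2-/- hearts (orange). Bars are 95% intervals and filled points passed the test; all 18 points on the left are filled, while 1 PKM2fl/fl point and 4 PKM2-/- points on the right are.

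Levels can be compared between genes per length of exon, here the bases covered by any exon of any transcript of the gene. That length can exceed the longest transcript, with 3195 against 1611 bases for Arg1 and 6625 against 3824 for Gpnmb. The order therefore depends on the length used. Per kilobase of exon, the order in the 3 PKM2fl/fl MI hearts was Lyz2 (3950 ± 1173 normalized counts per kilobase, SD, n = 3), Cd68 (1125 ± 173), Lgals3 (1116 ± 131), Arg1 (651 ± 445), Fabp5 (324 ± 26.3), Chil3 (259 ± 170), Gpnmb (200.4 ± 32.4), Plac8 (119.8 ± 6.65) and Ly6c2 (31.2 ± 16.02). Cd68 and Lgals3 differed by less than their spread. Fabp5 lay within the spread of Arg1 and of Chil3, and Gpnmb within that of Chil3. In PKM2-/- MI hearts Chil3 had 1040 ± 592 normalized counts per kilobase (SD, n = 3), beside Lgals3 at 1267 ± 198 and Cd68 at 1313 ± 184. At PKM2fl/fl baseline the same scale gave 570 ± 138 (SD, n = 2) for Lyz2, 109.6 ± 39.1 for Fabp5, 84.6 ± 0.377 for Cd68, 25.0 ± 1.204 for Lgals3 and under 5 for the others.

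The genes did not all rise in proportion to macrophage transcripts as a whole. The summed level of 16 other macrophage genes (among them Csf1r, Adgre1, Mpeg1 and the C1q chains) went from 10044 ± 2331 normalized counts in PKM2fl/fl sham hearts to 32372 ± 5105 in PKM2fl/fl MI hearts (SD, n = 3). Relative to that sum, Lgals3 went from 1.44% (0.971 to 1.93%) to 8.04% (6.88 to 9.25%), Cd68 from 1.82% (1.72 to 2.01%) to 4.80% (4.13 to 5.71%), and Arg1 from 0.517% (0.188 to 1.05%) to 6.09% (2.54 to 9.33%). Gpnmb went from 0.909% (0.438 to 1.24%) to 4.23% (2.84 to 5.18%), and Plac8 from 0.512% (0.453 to 0.570%) to 1.65% (1.46 to 1.76%). Chil3 went from 0.148% (0.113 to 0.215%) to 1.33% (0.486 to 1.91%). Lyz2 equalled 38.7% of the sum (30.7 to 43.9%) after sham surgery and 40.0% (35.0 to 45.8%) after MI, and Fabp5 equalled 3.91% (3.14 to 5.004%) and 3.76% (2.83 to 4.398%). Ly6c2 equalled 0.176% (0.115 to 0.269%) and 0.308% (0.130 to 0.476%). In PKM2-/- hearts Fabp5 went from 2.97% (2.77 to 3.27%) after sham surgery to 4.66% (4.02 to 5.29%) after MI, Lyz2 from 32.9% (30.9 to 34.8%) to 39.3% (33.1 to 43.3%), and Ly6c2 from 0.201% (0.0186 to 0.318%) to 0.258% (0.157 to 0.364%). Fabp5 thus overlapped between sham and MI hearts in PKM2fl/fl and not in PKM2-/-. At baseline Fabp5 equalled 6.70% of the sum (5.47 to 7.94%) in PKM2fl/fl and 8.02% (5.96 to 10.1%) in PKM2-/- hearts. Both baseline means were above those after MI. No test was run on these shares.

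The lists of related genes differed in how many of their genes rose. Of 12 tested genes of monocyte recruitment and entry, 9 rose in PKM2fl/fl and 10 in PKM2-/- hearts. They included Ccr2, the receptor that draws monocytes out of the marrow (log2 fold change 3.30 in PKM2fl/fl, SE 0.36, adjusted p = 4.66e-06), Itgb2, the shared chain of leukocyte integrins (2.58, SE 0.26), and Itga4 (1.69, SE 0.23). Of 18 companion genes of monocytes and recruited macrophages, 15 and 17 rose, with Fn1 (4.08), Thbs1 (3.86) and Vcan (2.20) at the smallest adjusted p in PKM2fl/fl. Those 3 matrix genes are also made by fibroblasts. Of 16 pan-macrophage genes, 13 and 14 rose, among them Mpeg1 (3.60), Laptm5 (1.94) and Fcer1g (2.10).

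Of 20 phagocytic and lipid-associated macrophage genes, 12 rose and 2 fell in PKM2fl/fl, and 14 rose and 2 fell in PKM2-/- hearts. Hmox1, which breaks down heme, rose by 4.50 on the log2 scale in PKM2fl/fl (SE 0.29, adjusted p = 5.15e-08), and the scavenger receptor Msr1 and the lysosomal protease Ctsz by 2.98 and 1.80. The fatty acid transporter Cd36 and the lipase Lpl, which cardiomyocytes and capillaries use for fuel, fell in both genotypes, by 1.34 and 1.73 on the log2 scale in PKM2fl/fl. Of 13 tested genes of arginine metabolism and alternative activation, 5 rose in PKM2fl/fl, and 7 rose and 1 fell in PKM2-/-. The arginine transporter Slc7a2 (1.51, SE 0.25), the interleukin 4 receptor chain Il4ra (1.89, SE 0.22) and Tgfb1 (1.45, SE 0.14) were among the 5. Of 10 tested genes for the TFEB and MITF family or partners of TREM2, 3 and 6 rose, and the 3 were the phosphatase Inpp5d (1.78), the phospholipase Plcg2 (1.46) and the factor Tfec (2.28).

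Close relatives of the genes gave a mixed picture. Of 12 tested relatives, 3 rose and 1 fell in PKM2fl/fl, and 2 rose and 2 fell in PKM2-/-. The rising ones in PKM2fl/fl included Lgals1 (log2 fold change 1.71, SE 0.13) and Lgals9 (1.22, SE 0.18), and the one that fell was Fabp3, the fatty acid binding protein of heart muscle (-1.94, SE 0.26). Ly6c1, the endothelial neighbour of Ly6c2, went the other way, from 2357, 1999 and 2119 normalized counts in PKM2fl/fl sham hearts to 1170, 1213 and 891 in PKM2fl/fl MI hearts (log2 fold change -0.99, SE 0.11, adjusted p = 6.94e-06, just under 2-fold). A transcript of Ly6c2 shared 121 bases, in exact stretches of at least 50, with Ly6c1, and 6.98% of its 2680 bases with other genes in all. The share was 19.6% for Lyz2, 19.1% for Arg1, 7.24% for Plac8, 5.02% for Gpnmb, 3.86% for Fabp5 and 0 for Chil3, Cd68 and Lgals3. How reads from such stretches were counted is not given in the sources used here, so the levels of Lyz2, Arg1, Plac8, Ly6c2, Gpnmb and Fabp5 are uncertain to that extent.

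Markers of other cells moved as well. After MI, 5 of 8 tested neutrophil genes rose in each genotype, 8 and 9 of 9 cardiomyocyte genes fell, and 7 of 7 proliferation genes rose in both. Of 9 resident cardiac macrophage genes, 0 rose and 1, Mgl2, fell in PKM2fl/fl (log2 fold change -1.08, SE 0.25), and 2 rose and 2 fell in PKM2-/-. In PKM2-/- hearts the phosphatidylserine receptor Timd4 fell, from 116, 48.3 and 77.7 to 25.9, 15.2 and 17.3 normalized counts (log2 fold change -1.94, SE 0.30), and the transcription factor Maf rose, from 765, 752 and 735 to 1779, 2201 and 2128 (1.43, SE 0.15). In PKM2fl/fl their log2 fold changes were -0.94 and 0.98, under 2-fold. Lyve1, Folr2, Cd163 and Cbr2 did not pass in either genotype. Of 7 fibroblast genes 3 rose in each genotype, of 3 platelet genes 2 rose in each, and of 6 endothelial and 5 erythroid genes 0 passed. Of 4 mast cell genes, 3 fell in PKM2fl/fl and 1 in PKM2-/-, and of 4 tested lymphocyte genes 1 rose in each genotype. The part of the other cell types in the values of the 9 genes was not tested.

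The second question was whether surgery alone moved the genes. Plac8 rose from 14.9 and 9.29 normalized counts in the 2 PKM2fl/fl baseline hearts to the 44.6 to 56.5 of the sham hearts (log2 fold change 2.00, SE 0.32, adjusted p = 0.0162). In PKM2-/- it rose from 11.7 and 14.7 to between 61.5 and 119 (2.49, SE 0.32, adjusted p = 9.24e-04). It was 1 of 9 tested genes to pass in PKM2fl/fl, where 0.16% of all genes passed as higher and 0.00972% as lower. In PKM2-/- 4 of 9 passed, where 2.06% of all genes passed as higher and 0.608% as lower. The other 3 were Chil3, from 4.66 and 0 to between 12.9 and 62.7 (3.74, SE 0.79, adjusted p = 0.0132), Cd68, from 156 and 106 to between 180 and 340 (1.01, SE 0.26, adjusted p = 0.0354), and Lgals3, from 86.2 and 44.0 to between 129 and 215 (1.34, SE 0.35, adjusted p = 0.0364).

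Of these calls, that of Plac8 in PKM2-/- was kept without each library in turn, and was lost with limma-voom (adjusted p = 0.165). The others were each lost without some single library. Plac8 in PKM2fl/fl missed the threshold without baseline replicate 2 (log2 fold change 1.69, adjusted p = 0.167), sham replicate 1 (2.00, 0.0822) or sham replicate 2 (1.92, 0.0731), and without sham replicate 3 the genes that passed numbered 4, Gpnmb, Lyz2 and Lgals3 being added. In PKM2-/- only Plac8 passed without baseline replicate 2, which had 0 reads of Chil3, a count that allows up to 5.50 normalized counts. Without it Chil3 had a log2 fold change of 2.49 (adjusted p = 0.183), Cd68 0.73 (0.294) and Lgals3 0.87 (0.339). Without sham replicate 1, sham replicate 2 or MI replicate 2 of PKM2-/-, 2 genes passed. Ly6c2, Arg1 and Fabp5 did not pass in either genotype. Without PKM2-/- sham replicate 3, the lowest of its group, Ly6c2 passed in PKM2-/- (log2 fold change 3.01, adjusted p = 0.0153). Fabp5 had a log2 difference of -0.04 in PKM2fl/fl and -0.39 in PKM2-/-. The neutrophil genes moved beside these values: their sum was 108 and 232 normalized counts at PKM2fl/fl baseline, 1432, 1559 and 256 after sham surgery, 225 and 176 at PKM2-/- baseline, and 1286, 1175 and 1445 after sham surgery. Of 8 tested neutrophil genes, 0 passed in PKM2fl/fl and 6 in PKM2-/-. In PKM2-/- hearts 8 of 16 pan-macrophage genes, 4 of 7 proliferation genes and 2 of 7 fibroblast genes passed as well, and in PKM2fl/fl 0 of each. The proliferation sum was 296 and 135 normalized counts at PKM2fl/fl baseline and 609, 1046 and 524 after sham surgery. In PKM2-/- it was 240 and 114 at baseline and 912, 534 and 581 after sham surgery. The median log2 fold changes in PKM2fl/fl and PKM2-/- were 1.23 and 1.34 for the 9 genes and 2.76 and 3.12 for the neutrophil genes. They were 0.84 and 1.07 for the pan-macrophage, 1.82 and 2.10 for the proliferation and 0.54 and 0.44 for the fibroblast genes. Whether the sham response differed between genotypes was not tested. The part of these lists in the values of the 9 genes was not tested.

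The third question was whether the loss of PKM2 altered these transcripts. At baseline 0 of 9 passed with limma, and 0 had an unadjusted p under 0.05, where 0.00972% of all genes passed as higher and 0% as lower. Chil3 was lower in both PKM2-/- hearts than in both PKM2fl/fl hearts (log2 difference -1.72, SE 0.86) and Gpnmb higher (0.80, SE 0.48), separations found in 17.2% of all genes in the lower and 17.7% in the higher direction. After sham surgery 0 of 9 passed, where 0.00486% of genes passed as higher and 0% as lower. Plac8 and Cd68 had an unadjusted p under 0.05, as did 2047 of all 20576 genes. After MI 0 of 9 passed, where 0.156% of all genes passed as higher and 0.258% as lower. Chil3 and Fabp5 had an unadjusted p under 0.05, as did 3492 of all 20576 genes. edgeR and DESeq2 also called 0 of the 9 in each of these comparisons. limma-voom called Chil3 after MI and 0 in the others.

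All 9 differences after MI were positive, with a median of 0.22 on the log2 scale against -0.0035 over all genes. The related lists had medians of 0.61 (companions), 0.32 (pan-macrophage), 0.28 (recruitment), 0.18 (arginine), 0.18 (TFEB and MITF), 0.105 (phagocytic) and 0.073 (relatives). Chil3 had a mean of 453 ± 298 normalized counts in PKM2fl/fl MI hearts and 1820 ± 1035 in PKM2-/- MI hearts (SD, n = 3). Its log2 difference was 2.17 (SE 0.71, 95% interval 0.66 to 3.67, adjusted p = 0.135). It passed when libraries were scaled to total reads (2.53, adjusted p = 0.00352), with limma-voom (2.17, 0.0376), with array weights (2.33, 0.0303) and without PKM2fl/fl MI replicate 3, the highest of its group (2.66, 0.0347). Over all settings and left-out libraries its difference lay between 1.46, without PKM2fl/fl MI replicate 2, and 2.66. Fabp5 had 1189 ± 96.3 and 1768 ± 280 normalized counts, a log2 difference of 0.56 (SE 0.18, 95% interval 0.18 to 0.94, adjusted p = 0.125). Chil3 and Fabp5 were the 2 of 9 genes whose genotypes did not overlap after MI, as for 10.7% of all genes in the higher direction.

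For the other 7 genes the intervals after MI spanned 0. They ran from -0.27 to 0.71 for Cd68, from -0.35 to 0.77 for Lyz2, from -0.38 to 0.83 for Plac8, from -0.48 to 0.84 for Lgals3 and from -0.57 to 1.11 for Gpnmb. The noisier genes allowed more, from -1.31 to 2.20 for Arg1 and from -1.56 to 1.74 for Ly6c2. With the deposited size factors, the upper limits for Cd68, Lyz2, Plac8 and Lgals3 were under 1 on the log2 scale, that is under 2-fold. Total count scaling shifted the median difference of all genes in this comparison by 0.36, so the bound depends on the scaling.

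**Figure D3:**
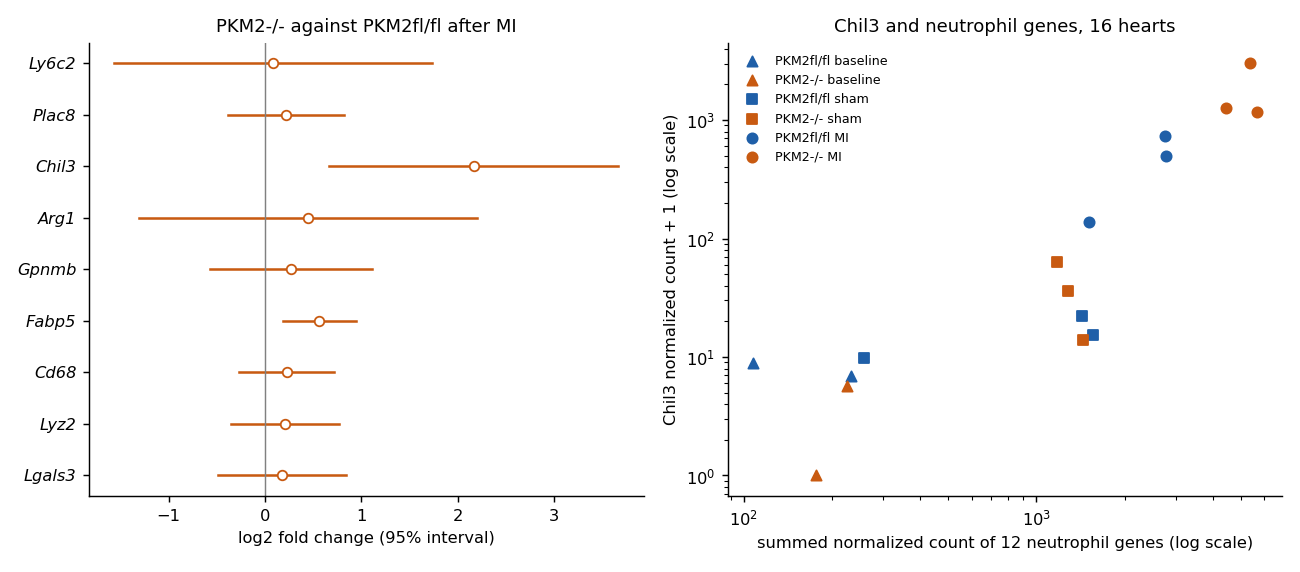
Left, log2 fold change of 9 genes in PKM2-/- against PKM2fl/fl hearts after MI, with 95% intervals; open points did not pass the test, and the intervals of Chil3 and Fabp5 lie above 0. Right, Chil3 normalized count plus 1 against the summed normalized count of 12 neutrophil genes in each of 16 hearts (both axes log scale), where the 3 PKM2-/- MI hearts are highest on both axes.

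The summed neutrophil, resident macrophage, platelet and atrial lists also stood higher in the PKM2-/- MI hearts, beside Chil3, although none of their tested genes passed. The dendritic cell sum was lower, at 1248 to 1523 normalized counts in PKM2fl/fl and 956 to 1160 in PKM2-/- MI hearts. The atrial sum was 9080 to 10179 and 10194 to 11653. Its largest part was Nppa, with 8868 to 9596 and 9821.5 to 11510, while Myl7, Myl4 and Sln overlapped between genotypes. The median log2 difference of the 4 tested atrial genes was -0.03. The sum of the arginine and alternative activation list did not overlap either, at 11790 to 15630 in PKM2fl/fl and 17834 to 22864 in PKM2-/- MI hearts. The sum of the 12 neutrophil genes was 2775, 1514 and 2749 normalized counts in PKM2fl/fl MI hearts. It was 5354, 4437 and 5684 in PKM2-/- MI hearts, so the genotypes did not overlap. Replicate 2 was lowest for both Chil3 and the neutrophil sum among PKM2fl/fl MI hearts, while among PKM2-/- MI hearts replicate 3 was lowest for Chil3 and highest for the neutrophil sum. The resident macrophage sum was 9310 to 13403 in PKM2fl/fl and 15835 to 17562 in PKM2-/- MI hearts. Its largest part was F13a1, which is also in the companion list of recruited macrophages, with 3916 to 8008 and 9042 to 10197. The median log2 difference of the 9 resident genes was 0.22, and 0 passed. The platelet sum was 1078 to 1640 and 1965 to 3200, and neither the resident nor the platelet sum overlapped between genotypes. The cardiomyocyte sums overlapped, with a median log2 difference of -0.55 over the 9 genes. Of 8 tested neutrophil genes 0 passed between genotypes after MI, with a median log2 difference of 1.32. S100a9, the calgranulin that is abundant in neutrophils and monocytes, had 470, 159 and 298 normalized counts in PKM2fl/fl and 1080, 827 and 1007 in PKM2-/- MI hearts (1.78, SE 0.60, adjusted p = 0.151). It passed with total count scaling (2.14, 0.00292) and without PKM2fl/fl sham replicate 3 (0.0388). S100a8, Cxcr2, Mmp8 and Retnlg were also higher in each PKM2-/- MI heart than in each PKM2fl/fl MI heart. Such a separation was found for 10.7% of all genes, and these genes were chosen after their values were seen. S100a8 had 134 to 281 normalized counts in PKM2fl/fl and 506 to 749 in PKM2-/-, and the chemokine receptor Cxcr2 131 to 259 and 384 to 522. The collagenase Mmp8 had 96.4 to 207 and 252 to 385, and Retnlg 20.1 to 40.2 and 71.1 to 119.7. Of the low genes of the list, Ly6g was at 0 in 2 PKM2fl/fl and 1 PKM2-/- MI hearts and at most 8.66 normalized counts in the others. The granule gene Ngp was at 0 in 2 PKM2fl/fl MI hearts and 4.29 in the other, and had 23.5, 3.81 and 1.44 in PKM2-/- MI hearts. The part of neutrophil, resident macrophage or platelet transcripts in the Chil3 difference was not tested. Relative to the 16 macrophage genes, Chil3 equalled 1.61%, 0.486% and 1.91% in PKM2fl/fl and 8.01%, 3.28% and 3.15% in PKM2-/- MI hearts.

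No interaction of genotype and MI was called for the 9 genes with limma, edgeR or DESeq2, and limma called 0 of 20576 genes in all. The smallest unadjusted p was that of Fabp5, with 0.72 more log2 units of rise in PKM2-/- (SE 0.25, 95% interval 0.18 to 1.25, unadjusted p = 0.012, adjusted p = 0.512), and it was the 1 of 9 with an unadjusted p under 0.05, as were 1703 of all genes. For Chil3 the interaction was 1.08 (SE 1.00, 95% interval -1.05 to 3.20).

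Among the genes of the related lists, 1 passed between genotypes after MI, and Il4ra passed besides with total count scaling (log2 difference 1.27, adjusted p = 0.024). Retnla, the resistin-like protein of alternatively activated macrophages, had 18.6, 17.1 and 20.1 normalized counts in PKM2fl/fl MI hearts and 1.62, 6.35 and 2.89 in PKM2-/- MI hearts. It was lower in each PKM2-/- MI heart, opposite in sign to Chil3 and Arg1, with which it is often listed. The log2 difference was -2.21 (SE 0.43, adjusted p = 0.033), and the values rested on 12 to 22 and on 2 to 10 reads. The call was lost without PKM2fl/fl MI replicate 1 (adjusted p = 0.0875) or 2 (0.117), without PKM2-/- MI replicate 1 (0.11) or 3 (0.101), and with edgeR (0.0589), limma-voom (0.143), total count scaling (0.0537), low genes kept in (0.0521), a pseudocount of 5 (0.0514) or only the 2 groups in the fit (0.189).

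The genes were next compared with each other within groups. Over the deviations of the 16 hearts from their group means on the log2 scale, the 36 pairs of the 9 genes had a median Pearson r of 0.22, from -0.57 for Ly6c2 with Cd68 to 0.78 for Gpnmb with Lgals3. Of the pairs, 10 were above 0.5. Arg1, Cd68, Lyz2 and Lgals3 had r between 0.62 and 0.76 with each other. Fabp5 and Ly6c2 had r of at most 0.50 with any other. The hearts share their library with every gene in it, so these are descriptions of 16 libraries.

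**Figure D4:**
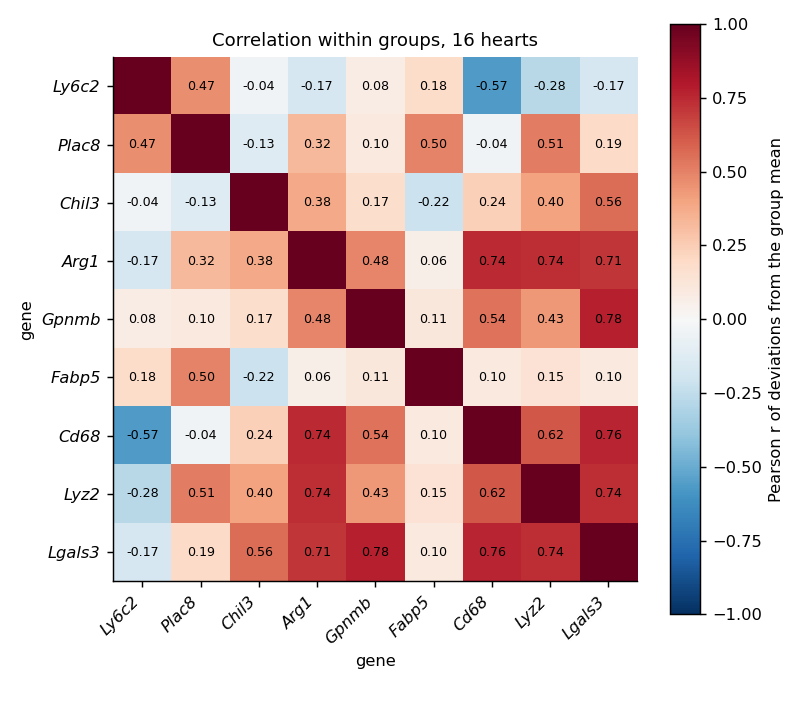
Pearson r between pairs of 9 genes (both axes) over the deviations of 16 hearts from their group means on the log2 scale. Red squares are positive and blue negative; Arg1, Cd68, Lyz2 and Lgals3 form the block of high values, and Ly6c2 with Cd68 is the lowest at -0.57.

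Over the levels of all 16 hearts, the gene most like each of the 9 was found by Pearson r. It was the Fc receptor Fcgr4 for Plac8 (r = 0.989), Havcr2, which encodes the checkpoint receptor TIM-3, for Chil3 (0.983), the receptor Cd300c2 for Arg1 (0.986), the inhibitory receptor Lilrb4a for Gpnmb (0.987), the kinase Ptk2b for Cd68 (0.994) and the phospholipid enzyme Lpcat2 for Lyz2 (0.993). Ankle1 was nearest to Ly6c2 (0.954), 6430550D23Rik to Fabp5 (0.983) and Gm49339 to Lgals3 (0.995). Havcr2 had 245 ± 41.8 normalized counts in PKM2fl/fl MI hearts and 514 ± 101 in PKM2-/- MI hearts (SD, n = 3). The 16 levels include the step from sham to MI, and r describes 16 libraries.

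Trem2, the lipid receptor of phagocytes that gives infarct macrophages one of their names, had 0 reads in every library. It lies at chr17:48346401-48352276 in GRCm38.p6, on the forward strand. It is within a run of 15 protein-coding genes, with starts spread over 417 kilobases from 48036745 to 48454127, whose mean was at most 4.52 normalized counts. The run includes Nfya, a subunit of a transcription factor used in most cells, with 8 reads over the 16 libraries, and Oard1, an enzyme also used in most cells, with 7. Apobec2, a muscle gene, had 78 reads. The genes on either side of the run, Foxp4 and Lrfn2, had means of 411.5 and 48.5. Low means were also found outside the run, such as 0.886 for Trerf1 and 7.05 for Mrps10. Since genes that most cells use were also near 0 in the run, Trem2 is given only as listed at 0, and no level of Trem2 can be read from these values. Its signalling partner Tyrobp, on another chromosome, had 234, 359 and 182 normalized counts in PKM2fl/fl sham hearts and 1164, 960 and 1245 in PKM2fl/fl MI hearts (log2 fold change 2.16, SE 0.23, adjusted p = 3.25e-06).

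**Figure D5:**
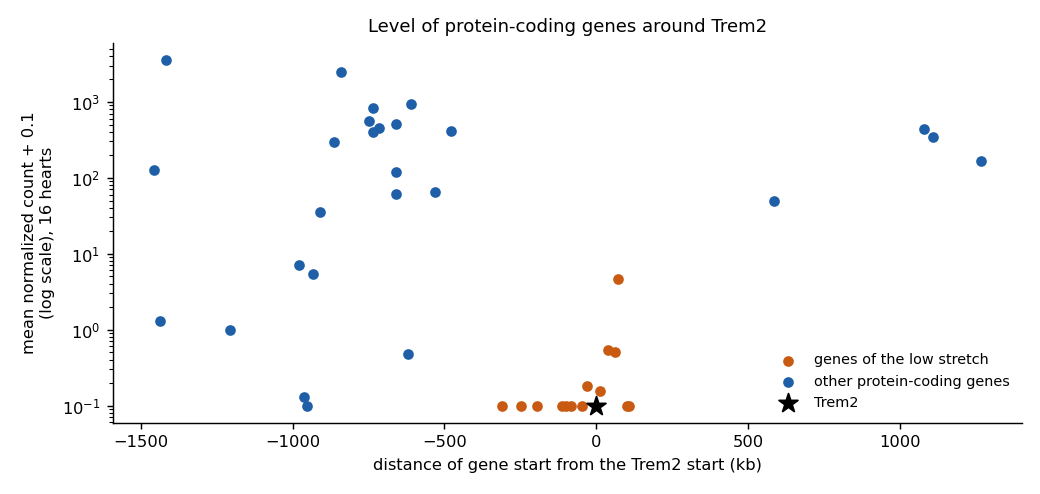
Mean normalized count plus 0.1 over 16 hearts (log scale) of 41 protein-coding genes within 1500 kilobases of the Trem2 start, by distance of their starts in kilobases. Trem2 (star) and the 14 other genes of the low stretch (orange) had means of at most 4.52. Some genes outside the stretch were as low, and 19 of the 41 genes had a mean of at least 10.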

How the data were processed

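Per the labels and the study's methods, rRNA-depleted RNA of left ventricles was sequenced paired-end, and the authors trimmed reads with PRINSEQ. HISAT2 (mm10) then placed the reads, featureCounts gave a count for each gene, and DESeq2 scaled the counts. Strand and multiple-mapping settings are not given in the sources used here. The authors deposited a normalized signal, the gene count divided by the library's size factor. All values were whole after division by the value of 1 read (tolerance 0.05), so reads were recovered, at 20623769 to 71855101 per library. The deposited table also holds the authors' mean signal and, for the baseline groups, their log2 fold change, its error and Wald score, and their p-value, which were not used. Every column was matched to a label, and 0 were left out.

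limma-trend (limma 3.58.1, R 4.3.3) was fitted to log2(value + 1) of all 16 libraries in 6 groups, for genes with a mean of at least 10. Benjamini-Hochberg adjusted p under 0.05 with at least a 2-fold difference counted as passing. Intervals are 95% and rest on the spread between hearts. A count of 0 allows up to 3 reads, which covers counting error only. Alternatives were total count, TMM and upper quartile scaling, count tests on the recovered reads (edgeR 4.0.16, DESeq2 1.42.0, limma-voom), array weights, only the groups compared, pseudocounts of 0.1 and 5, no filter or a minimum mean of 50, the replicate number as a block, and each library left out in turn. The fits were tested on simulated data.

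The genes and lists were chosen with earlier results of these data known. Genes of a list were named where they had the smallest adjusted p for MI against sham in PKM2fl/fl (up to 3), where they passed between genotypes (up to 2), where they were the most alike by Pearson r, or as close relatives. S100a8, S100a9, Cxcr2, Mmp8, Retnlg, Ngp, Ly6g, Cd36, Lpl, Il4ra between genotypes, Tyrobp and the resident macrophage genes named were chosen after their values were seen. Each library is a separate heart by its label, and the labels give no batch. Coordinates and promoters are of GRCm38.p6 (RefSeq), and exon lengths and transcripts of GENCODE M39. Stretches shared between transcripts were found with BLAST 2.17.0.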

Additional observations from a re-analysis of the deposited data

Results flagged for a closer look

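Chil3 was the 1 result that met a rule for a closer look, because every PKM2-/- heart was below every PKM2fl/fl heart at baseline and every PKM2-/- heart was above every PKM2fl/fl heart after MI. It had 7.85 and 5.97 normalized counts in PKM2fl/fl and 4.66 and 0 in PKM2-/- hearts at baseline, from 10 reads or fewer per heart. The log2 genotype effect after MI exceeded that at baseline by 3.89 (SE 1.12, unadjusted p = 0.0033, adjusted p = 0.318 with limma). Of 20576 genes, 5 passed in the same comparison, which was chosen after the values were seen. Against sham surgery in place of baseline, the difference was 1.08 (adjusted p = 0.796).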

How the results depend on the processing

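All 9 genes passed for MI against sham in PKM2-/- under each of the 29 alternatives that kept them, and in PKM2fl/fl all but Ly6c2, whose exceptions are given above. A minimum mean of 50 left Ly6c2 out, so it has no value there. Over the 9 genes, the 8 comparisons and the alternatives, 2024 fold changes kept their call, 37 lost it, 19 gained it and 0 reversed. After MI, the genes passing between genotypes went from 0 to 1 with total count scaling, limma-voom or array weights, and from 0 to 1 over the libraries left out. For sham against baseline in PKM2fl/fl, 1 gene passed. It became 2 with total count scaling, 4 with DESeq2 or array weights and 0 with edgeR, limma-voom or only the groups compared, with 0 to 4 over the libraries left out. In PKM2-/-, the 4 genes became 1 with edgeR or only the groups compared, 0 with limma-voom and 2 without the filter on low values, with 1 to 5 over the libraries left out. The causes were not tested.

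Counts over all genes moved by more than 1.5 times as well. The 85 genes passing between genotypes after MI ranged from 6 (only the groups compared) to 634 (without PKM2fl/fl MI replicate 3). Those for the interaction ranged from 0 to 227, at baseline from 0 to 44, and after sham surgery from 0 to 113. Those for sham against baseline ranged from 1 to 321 in PKM2fl/fl, where the count was 35, and from 183 to 641 in PKM2-/-, where it was 548. Total count scaling shifted the median log2 difference of all genes by -0.59, -0.32 and 0.36 between genotypes at baseline, sham and MI, by -0.17 and 0.51 for MI against sham in PKM2fl/fl and PKM2-/-, by 0.68 for the interaction and by 0.21 for sham against baseline in PKM2-/-.

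The replicate numbers did not pair the hearts: over 18 same-numbered pairs the correlation of deviations ran from -0.20 to 0.13, and 1 pair was over 0.1. With the replicate block, 1 gene passed for sham against baseline in PKM2fl/fl, Gpnmb (2.27, adjusted p = 0.0206) in place of Plac8 (2.01, 0.0506), and Gpnmb was added in PKM2-/- (1.65, 0.0155). The block changed no other call among the 9 genes, and it ended that of Retnla between genotypes after MI (adjusted p = 0.0517). Ly6c2 had 1 to 4 reads and Chil3 0 to 4 in PKM2-/- baseline hearts, and Ly6c2 had 2 in PKM2-/- sham replicate 3, which limits their precision there.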
